A study of Mus musculus with 10 samples.

Results

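The genes described here are 10 of the 17465 genes with a value in every library, and they belong to 2 linked inflammatory circuits of the lung. They are the ligand genes Il6, Osm and Il1b, the antagonist gene Il1rn, the receptor genes Il6ra, Osmr and Il6st, the transcription factor gene Stat3, and the feedback genes Socs3 and Nfkbia. The genes were chosen by name with their measured levels in these libraries already known, so those levels are a description and the test results given for them are no independent evidence. Messenger RNA from whole mouse lung was sequenced in 3 HE, 4 Hy and 3 C libraries. The series title names wild-type mice, mice with pulmonary hypertension brought on by hypoxia, and such mice put through aerobic exercise. Since the labels leave the prefixes unexplained, the groups are called HE, Hy and C. Every library carries the same wild-type genotype label, the same tissue label and the same treatment label. Whether each library is a separate animal is not stated, and p-values therefore describe the spread between libraries, some of which may be technical.

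Interleukin 6 binds its receptor IL-6R, encoded by Il6ra, and the complex engages the shared signalling chain gp130, encoded by Il6st. Oncostatin M, encoded by Osm, signals through gp130 paired with the oncostatin M receptor, encoded by Osmr. Both routes activate Janus kinases, which phosphorylate STAT3, and STAT3 switches on Socs3, whose product binds gp130 and the kinases and shuts the signal down. Interleukin 1 beta, encoded by Il1b, is made mainly by activated myeloid cells and drives the transcription factor NF-kB through its receptor, whereas the product of Il1rn occupies that receptor without signalling. NF-kB in turn induces Il6, Il1b and Nfkbia, the gene for the inhibitor that holds NF-kB in the cytoplasm. IL-6 is a much studied cytokine in pulmonary hypertension of humans and rodents.

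The Socs3, Il6 and Nfkbia promoters are shown because they carry a match to the binding motif of STAT or NF-kB, the factors on which these circuits turn. RefSeq windows on GRCm38.p6, from 250 bases before to 50 bases after the start site, were given for 9 of the 10 genes, Osm being the other one. Capitals mark the matches found. The motifs searched on both strands were TTCNNNGAA for STAT, the NF-kB consensus, and TGAGTCA or its reverse complement TGACTCA for AP-1.
Socs3, chr11:117969317-117969616, minus strand: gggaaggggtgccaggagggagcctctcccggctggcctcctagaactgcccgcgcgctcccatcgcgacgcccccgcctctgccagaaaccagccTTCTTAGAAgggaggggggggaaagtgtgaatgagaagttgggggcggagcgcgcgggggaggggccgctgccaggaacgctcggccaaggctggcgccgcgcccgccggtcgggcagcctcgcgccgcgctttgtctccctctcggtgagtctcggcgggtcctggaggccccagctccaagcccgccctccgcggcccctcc
Il6, chr5:30012864-30013163, plus strand: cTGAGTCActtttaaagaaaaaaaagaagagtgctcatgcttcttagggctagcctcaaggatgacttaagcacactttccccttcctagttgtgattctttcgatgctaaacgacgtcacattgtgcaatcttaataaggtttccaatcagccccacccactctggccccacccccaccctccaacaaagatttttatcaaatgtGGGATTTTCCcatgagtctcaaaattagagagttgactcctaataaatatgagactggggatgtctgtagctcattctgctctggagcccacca
Nfkbia, chr12:55492598-55492897, minus strand: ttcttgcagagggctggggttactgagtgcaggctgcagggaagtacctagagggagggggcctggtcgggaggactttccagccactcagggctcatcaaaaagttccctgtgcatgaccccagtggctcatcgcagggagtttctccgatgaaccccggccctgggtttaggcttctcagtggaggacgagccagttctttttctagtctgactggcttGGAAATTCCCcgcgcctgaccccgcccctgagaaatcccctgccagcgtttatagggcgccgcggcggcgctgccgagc
The Socs3 match to TTCNNNGAA began 154 bases before the start site of its window and read TTCTTAGAA. This window lies within the gene's span of positions 117966079 to 117970336, so its start site is inside the annotated gene. The Il6 window held GGGATTTTCC, a match to the NF-kB consensus that began 44 bases before the start site, and TGAGTCA 249 bases before it. The Nfkbia match to the NF-kB consensus lay on the opposite strand, where the printed strand reads GGAAATTCCC, and began 29 bases before the start site. Il1rn held TGAGTCA 141 bases before one of its start sites, and the windows of Il1b, Il6ra, Il6st, Osmr and Stat3 held none of the 3 motifs. Of all 32851 windows in the RefSeq table, 8.3% held the STAT motif, 4.51% the NF-kB consensus and 5.2% the AP-1 motif. The matches overlap no other match, and binding was not measured.

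Levels are given as CPM, the count of a gene scaled to the size of its library with TMM factors, from libraries that held 16560649 to 17804039 estimated counts. The C libraries list values for 18713 genes and the HE and Hy libraries for 17956, and whether C was processed apart is not stated in the sources used here. A difference between C and either other group cannot be told apart from a difference in such a step. Hy3 stood apart from the other Hy libraries over all genes. Hy2 and Hy4 stood apart in 15 neutrophil genes, whose summed level was 294 to 437 CPM in HE, 414, 1867, 350 and 3226 CPM in Hy1 to Hy4, and 204 to 440 CPM in C. Results that rest on these libraries are given with and without them. In whole lung, fewer cells of a type and less RNA per cell cannot be told apart. Genes were called at an edgeR adjusted p below 0.05, with Benjamini-Hochberg adjustment over 14766 tested genes. Of the members, 9 passed the filter on low counts, and Il6 did not. Other genes overlap 4 members on the genome, namely A230098N10Rik Il6, Il1bos Il1b, Gm46811 Il6ra and Gm46295 Stat3. Strand is not stated in the sources used here, so the reads of each such pair cannot be told apart.

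Among the ligands, Il6 was close to the limit of detection. Its estimated counts were 1, 0 and 1 in HE, 3, 2, 7 and 1 in Hy, and 0, 1 and 2 in C. No group stood clear of the others, and the single highest count was in Hy3. In the libraries at 0, HE2 and C1, a count of 0 allows up to 0.182 and 0.167 CPM (3 counts, counting error only). A difference in Il6 was not detectable at this depth.

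Il1b and Osm were higher in Hy than in C and were highest in Hy2 and Hy4. Il1b, which encodes interleukin 1 beta (chromosome 2, positions 129364569 to 129371164), had 6.09, 15.02 and 6.07 CPM in HE, 24.2, 56.0, 13.1 and 60.0 CPM in Hy, and 7.19, 6.99 and 6.14 CPM in C. All Hy libraries lay above all C libraries, whereas HE2 lay above Hy3. Hy against C gave a log2 fold change of 2.50 (SE 0.54, edgeR adjusted p = 0.0101), and the call held without each single library. HE against Hy gave -2.08 (SE 0.53), with an unadjusted edgeR p of 0.00263 and an adjusted p of 0.739. HE against C gave 0.42 (edgeR adjusted p = 0.621). Without Hy2 and Hy4 together, the Il1b log2 fold change was 1.45 in Hy against C (edgeR adjusted p = 0.0751) and -1.04 in HE against Hy (0.754).

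Osm, the oncostatin M gene (chromosome 11, positions 4236785 to 4241026), had 1.15, 1.21 and 0.993 CPM in HE, 1.67, 4.89, 1.44 and 7.82 CPM in Hy, and 0.836, 0.990 and 0.852 CPM in C. Every Hy library was above every HE and C library, with Hy2 and Hy4 far above Hy1 and Hy3. The Osm log2 fold change was 2.14 in Hy against C (SE 0.58, edgeR adjusted p = 0.0237), -1.82 in HE against Hy (SE 0.57, unadjusted p = 0.00918, adjusted p = 0.739) and 0.32 in HE against C (adjusted p = 0.744). Osm lost its Hy against C call without C1, C2, C3, Hy2 or Hy4 (edgeR adjusted p = 0.0773, 0.0728, 0.0822, 0.0534 and 0.0548) and with the replicate number as a block (0.0678). Without Hy2 and Hy4 together its log2 fold change was 0.78 in Hy against C (0.212) and -0.47 in HE against Hy (0.846).

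Il1rn, which encodes the interleukin 1 receptor antagonist (chromosome 2, positions 24336860 to 24351491), was not called in any of the 3 comparisons. It had 1.95, 4.24 and 3.97 CPM in HE, 3.11, 10.5, 9.24 and 13.3 CPM in Hy, and 8.47, 3.50 and 4.49 CPM in C. Hy2, Hy3 and Hy4 were the highest libraries, while Hy1 lay inside the range of HE. Its log2 fold change was 0.72 in Hy against C (edgeR adjusted p = 0.290), -1.41 in HE against Hy (unadjusted p = 0.0172, adjusted p = 0.804) and -0.69 in HE against C (adjusted p = 0.364). The level of Il1b divided by that of Il1rn was 3.12, 3.54 and 1.53 in HE, 7.81, 5.33, 1.42 and 4.50 in Hy, and 0.849, 2.00 and 1.37 in C. Of the Hy libraries, Hy1, Hy2 and Hy4 had a ratio above those of all HE and C libraries, and Hy3 did not. This ratio is not corrected for gene length and compares libraries only.

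**Figure D1:**
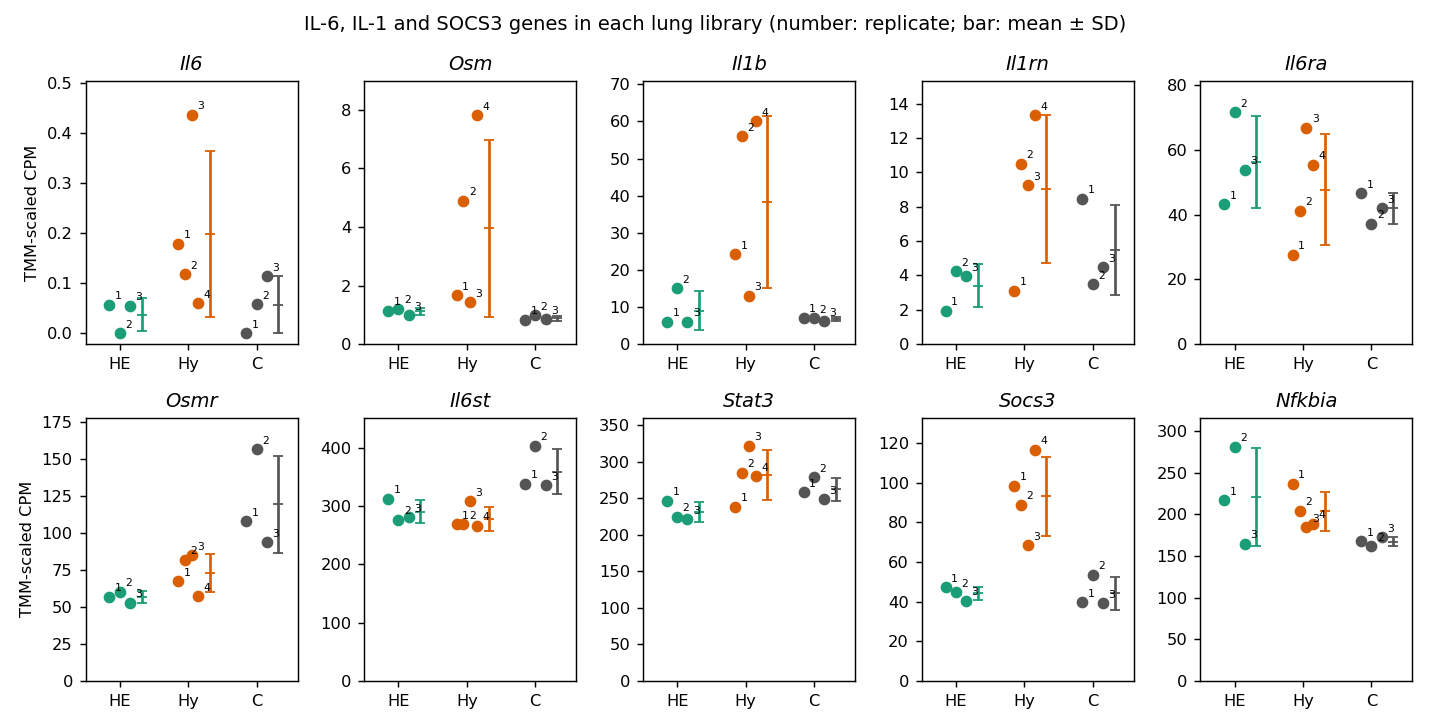
TMM-scaled CPM of the 10 genes (y axes, each from 0 apart from a margin under Il6) in the HE, Hy and C libraries (x axes); points are libraries, small numbers are replicate numbers, and bars are mean ± SD. Socs3 lies between 68.4 and 117 CPM in Hy, above all HE and C libraries, while Il1b and Osm are highest in Hy2 and Hy4 and Osmr is highest in C.

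The receptor genes did not follow the ligands. Osmr, the receptor chain specific to oncostatin M (chromosome 15, positions 6813568 to 6874968), had 56.9, 60.5 and 52.8 CPM in HE, 67.5, 82.0, 85.1 and 57.2 CPM in Hy, and 108, 157 and 93.6 CPM in C. The C libraries were all above the others, and Hy4 lay within the range of HE. Osmr fell in HE against C with a log2 fold change of -1.07 (SE 0.21, edgeR adjusted p = 0.00868), a call that held without each single library and was lost without C1, Hy4 and HE3 together (0.0596). It also fell in Hy against C, with a log2 fold change of -0.71 (SE 0.19, edgeR adjusted p = 0.0220). That call was lost without C2 (0.0989) or Hy4 (0.0541), with the replicate block (0.0625) and without Hy2 and Hy4 together (0.106). The Osmr log2 fold change in HE against Hy was -0.36 (SE 0.19, edgeR adjusted p = 1.00).

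Il6st, the shared gp130 chain (chromosome 13, positions 112464070 to 112506860), had 313, 277 and 281 CPM in HE, 269, 269, 308 and 267 CPM in Hy, and 339, 403 and 336 CPM in C. All C libraries were again above all others. On the log2 scale Il6st differed by -0.37 in Hy against C (SE 0.12, edgeR adjusted p = 0.0438) and -0.31 in HE against C (SE 0.13, adjusted p = 0.112). The Il6st call in Hy against C was the least firm of the members. It was lost without any 1 of C1, C2, C3, Hy1, Hy2, Hy4, HE1, HE2 and HE3 (edgeR adjusted p between 0.0590 and 0.181), with the replicate block (0.162) and with no filter on low counts (0.0556).

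Il6ra, the receptor chain specific to IL-6 (chromosome 3, positions 89869324 to 89913196), had 43.3, 71.7 and 53.9 CPM in HE, 27.6, 41.2, 66.8 and 55.4 CPM in Hy, and 46.7, 37.2 and 42.0 CPM in C. The 3 groups overlapped, and Hy1 was the lowest library and HE2 the highest. Its log2 fold changes were 0.19 in Hy against C, 0.24 in HE against Hy and 0.42 in HE against C (edgeR adjusted p = 0.644, 1.00 and 0.322). In Hy against C its sign turned without Hy3 (-0.03).

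Stat3 (chromosome 11, positions 100886806 to 100939594), which encodes the transcription factor downstream of gp130, varied little. It had 247, 225 and 221 CPM in HE, 239, 285, 323 and 280 CPM in Hy, and 258, 279 and 249 CPM in C. Hy3 was highest, and the HE libraries lay below all C libraries but HE1 lay above Hy1. The fold change on the log2 scale was 0.10 in Hy against C (SE 0.13, edgeR adjusted p = 0.571), -0.29 in HE against Hy (SE 0.13, unadjusted p = 0.0455, adjusted p = 0.985) and -0.18 in HE against C (adjusted p = 0.352). These values are transcript levels and say nothing of STAT3 phosphorylation, which was not measured.

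Socs3, the feedback inhibitor induced by STAT3 (chromosome 11, positions 117966079 to 117970336), showed the most even difference between the groups. It had 47.1, 44.8 and 40.3 CPM in HE, 98.4, 88.7, 68.4 and 117 CPM in Hy, and 39.6, 53.5 and 39.2 CPM in C. All 4 Hy libraries were above all HE and all C libraries, and the HE libraries lay within the range of C. The mean was 44.1 ± 3.45 CPM in HE (SD, n = 3), 93.0 ± 20.1 CPM in Hy (SD, n = 4) and 44.1 ± 8.11 CPM in C (SD, n = 3). Socs3 rose in Hy against C with a log2 fold change of 1.08 (SE 0.19, edgeR adjusted p = 0.00423). That call held without each single library, with the replicate block (0.0143) and without Hy2 and Hy4 together (log2 fold change 0.90, 0.0372), and was lost without C1, Hy4 and HE3 together (0.0714). For HE against Hy the log2 fold change was -1.08 (SE 0.19), with an unadjusted edgeR p of 0.000154 and an adjusted p of 0.597. It reached an edgeR adjusted p of 0.0434 without Hy3 and a DESeq2 adjusted p of 0.000187, though DESeq2 called too many unchanged genes in simulated data. Without Hy2 and Hy4 together the log2 fold change in HE against Hy was -0.92 (edgeR adjusted p = 0.538). The Socs3 log2 fold change in HE against C was -0.00076 (SE 0.19, edgeR adjusted p = 0.998). The level of Socs3 divided by that of Stat3, not corrected for length, was 0.191, 0.199 and 0.182 in HE, 0.412, 0.311, 0.212 and 0.416 in Hy, and 0.153, 0.191 and 0.157 in C. The 4 Hy ratios were above all others, with that of Hy3 nearest to them.

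Nfkbia, the gene for the NF-kB inhibitor IkB alpha (chromosome 12, positions 55489409 to 55492647), had 217, 282 and 165 CPM in HE, 237, 205, 185 and 189 CPM in Hy, and 168, 162 and 173 CPM in C. The Hy libraries were all above the C libraries, while HE spread over the ranges of both. None of its differences was called, with log2 fold changes of 0.28 in Hy against C (SE 0.17, edgeR adjusted p = 0.245), 0.12 in HE against Hy (SE 0.17, 1.00) and 0.40 in HE against C (SE 0.18, 0.145). The summed level of 19 immediate early genes, a set that reacts fast to cell stimulation and tissue handling, was 1866 to 3837 CPM in HE, 3031 to 3783 CPM in Hy and 1556 to 1602 CPM in C. HE2 and Hy1 were the highest libraries and HE3 the lowest outside C, both for that sum and for Nfkbia. Its part in the Nfkbia values was not tested.

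Divided by exon length, the order of the mean levels in Hy ran from Nfkbia (129 CPM per kilobase) over Stat3 (45.2), Socs3 (36.5), Il1b (28.3) and Il6st (25.3) to Osmr (13.3), Il6ra (5.52), Il1rn (3.34), Osm (1.74) and Il6 (0.0818). In HE the mean level of Socs3 was 17.3 CPM per kilobase and that of Il1b 6.68, both below Il6st at 26.5. In C they were 17.3 and 4.99 CPM per kilobase, below Il6st at 32.8 and Osmr at 21.7. Socs3, Il1b and Il6st overlapped in Hy once the spread between libraries is counted, since Il1b alone had an SD of 23.2 CPM around a mean of 38.3 CPM.

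Counted over the members, Hy against C gave 3 higher calls (Osm, Il1b and Socs3) and 2 lower calls (Osmr and Il6st) among the 9 tested. Of all 14766 genes tested, 26.1% were called in that comparison, 15.1% higher and 11% lower. The groups did not overlap for 6 members, against 33.6% of all genes, and the median log2 fold change was 0.28 over the members and 0.03 over all genes. With the replicate block only Il1b and Socs3 remained called, and the count of 5 was 3 without C1, C3 or Hy2 and 2 without C2 or Hy4. Over all genes the 3850 calls became 1745 with the block. Without 1 of these libraries they were 1681 (without C2) to 2737 (without Hy2). DESeq2 called 32.4% of all genes. In HE against Hy edgeR called 0 members and 0% of all genes. Without Hy3 it called 1 member (Socs3), and 6 of all 14725 genes tested, each of them lower. At an unadjusted p below 0.05 the main fit had 5 members, all lower (Osm, Il1b, Il1rn, Stat3 and Socs3). Of all genes it had 4.97% in either direction and 3.34% lower. DESeq2, which called too many unchanged genes in simulated data, called Socs3 and Il1b (adjusted p = 0.000187 and 0.0125) and 0.325% of all genes. The HE and Hy libraries did not overlap for Osm and Socs3, against 4.5% of all genes, and the median log2 fold change was -0.36 over the members and -0.01 over all genes. In HE against C, Osmr was the 1 member called, at 20.4% of all genes called, 8.66% lower, and 27.2% by DESeq2. Il6st was called as well without Hy3, when 4712 of all genes were called, and Nfkbia without HE3, when 1889 were. In that comparison 4 members did not overlap (Osm, Osmr, Il6st and Stat3), against 51.7% of all genes, and the members' median was -0.00076 beside 0.02 over all genes. The 3 comparisons share libraries pairwise, so they are not separate evidence of one another.

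**Figure D2:**
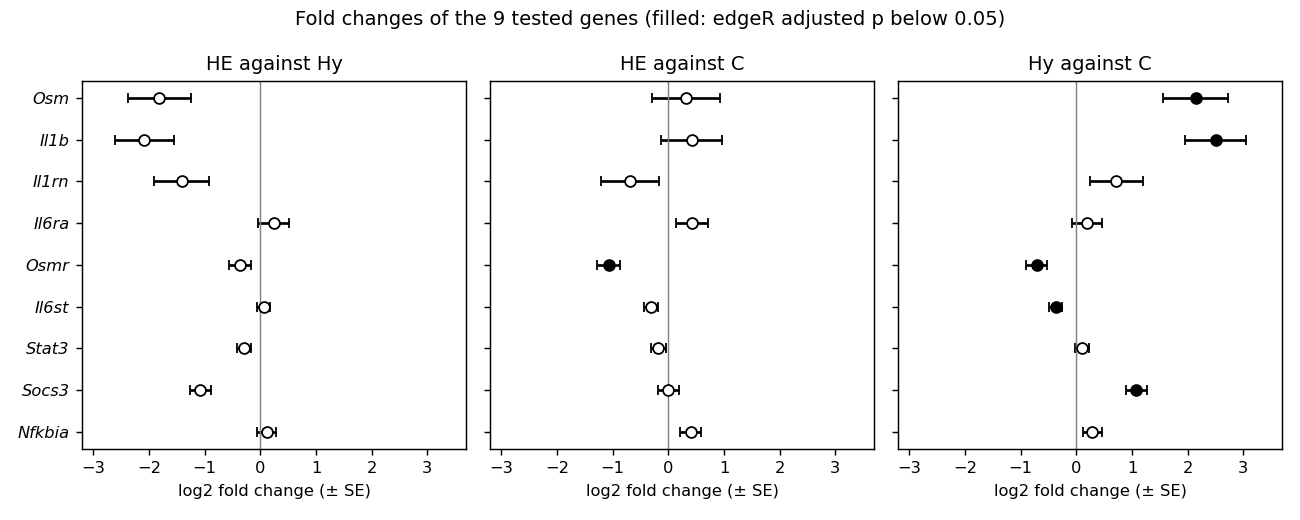
Fitted log2 fold changes (x axes, bars ± SE) of the 9 tested genes in HE against Hy, HE against C and Hy against C; filled points are calls at an edgeR adjusted p below 0.05. Il1b, Osm and Socs3 lie at 2.50, 2.14 and 1.08 in Hy against C and at -2.08, -1.82 and -1.08 in HE against Hy, where no point is filled.

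Neutrophil genes moved with the ligand genes across the libraries. Of the 15 neutrophil genes, among them S100a8, S100a9, Csf3r, Retnlg, Ltf and G0s2, 9 were higher and 0 lower in Hy against C, beside 15.1% of all genes higher. Their median log2 fold change there was 2.44. In HE against Hy the median was -2.52, with 0 called by edgeR and 3 lower by DESeq2. In that comparison 13 had a log2 fold change below 0 and 2 above it, Ltf at 3.33 and G0s2 at 0.05. The count of 9 became 4 without C1, 1 without C2, 0 without C3, 5 without Hy2 or Hy4, and 3 without both of these or under the replicate block, and limma-voom called 2. All 15 had counts above 0 in every library. Correlations with the log2 level of the neutrophil sum are given as a description across the 7 Hy and HE libraries. These share Hy2 and Hy4 as the high points. The values of r were 0.97 for Osm, 0.86 for Il1b, 0.78 for Il1rn and 0.70 for Socs3. They were not particular to neutrophils for Il1rn, at 0.80 with the monocyte sum, or Socs3, at 0.65 with the T and NK lymphocyte sum. Osm and Il1b had 0.35 and 0.50 with the monocyte sum. Hy1 had 414 CPM of the neutrophil sum, inside the range of HE (294 to 437 CPM), and there Socs3 was 98.4 CPM and Il1b 24.2 CPM, both above all HE libraries. The sum does not make Hy1 equal to HE in each gene. S100a8, Retnlg, Mmp9, Ngp, Camp, Stfa2l1 and Trem1 were lower in every HE library than in every Hy library, Hy1 included. The other genes of the set overlapped, among them Ltf with 49.3 ± 65.5 CPM in HE and 4.92 ± 3.93 CPM in Hy (means ± SD). The monocyte sum was 271 to 544 CPM in HE, 441 to 852 CPM in Hy and 346 to 499 CPM in C. The interstitial macrophage sum was 166 to 289 CPM in HE, 182 to 468 CPM in Hy and 524 to 618 CPM in C, so C was highest in that sum as it was for Osmr and Il6st. Lyve1 alone held 110 ± 95.5 CPM of the sum in Hy (mean ± SD). The median log2 fold change of the 10 genes was only -0.13 in Hy against C, with 3 above 0 and 7 below. In HE against C it was -0.43, with 1 above 0 and 9 below. The alveolar macrophage sum was 247 to 476 CPM in HE, 222 to 460 CPM in Hy and 351 to 669 CPM in C, and Il6ra followed it at r = 0.85 over the 7 Hy and HE libraries. The T and NK lymphocyte sum was 37.9 to 48.6 CPM in HE, 42.3 to 84.4 CPM in Hy and 59.7 to 73.5 CPM in C. The glucocorticoid-responsive sum was 1270 to 2952 CPM in HE, 1210 to 2030 CPM in Hy and 1849 to 2340 CPM in C. Lung tissue markers were abundant in every library, with sums of 57743 to 86593 CPM in HE, 50424 to 126830 CPM in Hy and 55606 to 60939 CPM in C. The part of these cell types in the members' values was not tested.

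**Figure D3:**
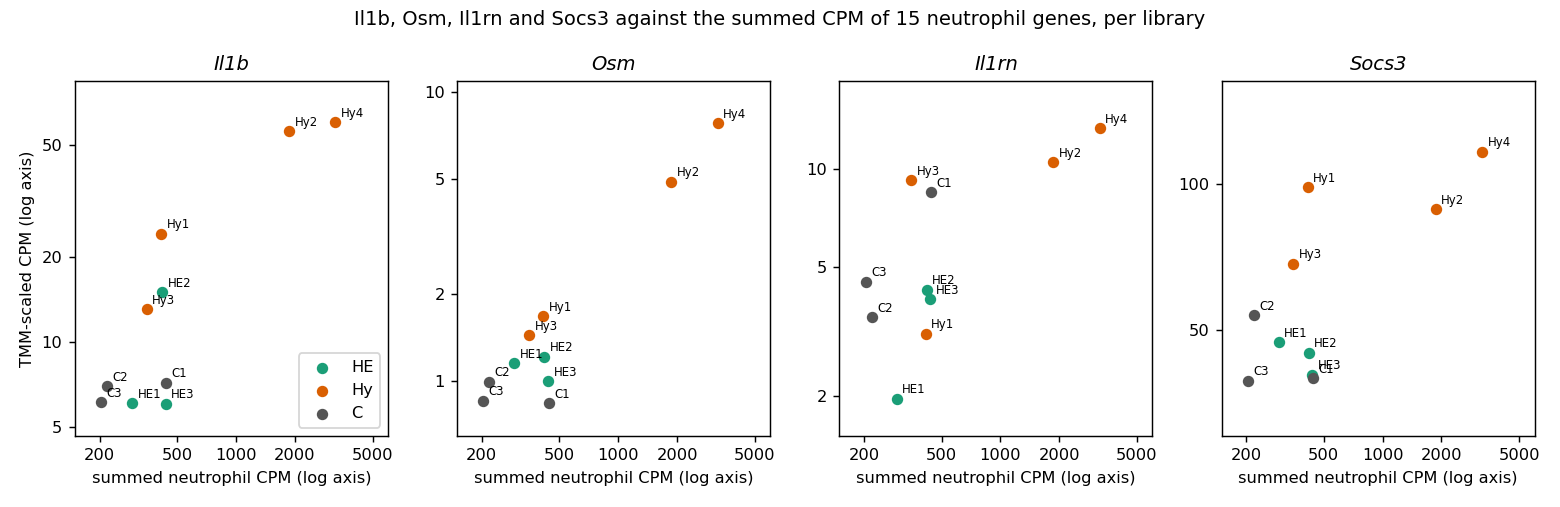
TMM-scaled CPM of Il1b, Osm, Il1rn and Socs3 (y axes, log) against the summed CPM of 15 neutrophil genes (x axes, log), with 1 point per library coloured by group. Hy4 and Hy2, at 3226 and 1867 CPM of the neutrophil sum, hold the highest Il1b, Osm and Il1rn, whereas Hy1 at 414 CPM has more Socs3 (98.4 CPM) than Hy2.

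The surrounding pathways were followed in 9 lists, which held 125 tested genes besides the members. In Hy against C, 24 of the 125 were higher and 6 lower, which is 24.0% against 26.1% of all genes. In HE against C, 14 were higher and 10 lower, which is 19.2% against 20.4%. By edgeR 0 were called in HE against Hy, and DESeq2 called 1 lower. These counts moved with single libraries. In Hy against C they were 14 higher and 4 lower without C2, 13 and 2 without C3, 14 and 3 under the replicate block, and 40 and 23 without Hy3. The 6 lower calls also became 10 without Hy1, and without Hy2 and Hy4 together the counts were 8 and 1. In HE against C they were 7 and 5 without C1, 7 and 2 without C2, and 5 and 2 without C3. They were 7 and 5 there without HE1, 6 and 1 without HE2, 10 and 6 without HE3, and 21 and 25 without Hy3. Calls over all genes moved too. In Hy against C the 3850 calls became 1681 without C2, 1690 without C3 and 1745 under the replicate block. They became 5973 without Hy3 and 1070 without Hy2 and Hy4 together. In HE against C the 3013 calls became 4712 without Hy3. Without a C or HE library they were 1014 (without C3) to 1889 (without HE3). Changes in the counts of single lists are to be read beside these.

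Among genes upstream of STAT3, Ctf1 and Lif, which encode other gp130 ligands, were called higher in Hy than in C. Of the 12 tested genes for other ligands and receptors of the IL-6 family, 3 rose and 0 fell, a share near the 26.1% of all genes, with a median log2 fold change of 0.25. Ctf1, which encodes cardiotrophin 1, had 6.92 ± 1.07 CPM in Hy and 3.93 ± 0.127 CPM in C (means ± SD) (log2 fold change 0.82, edgeR adjusted p = 0.0132). Lif, the leukaemia inhibitory factor gene, had 3.27 ± 0.595 CPM in Hy and 1.78 ± 0.324 CPM in C (log2 fold change 0.87, 0.0351). The Ctf1 call was lost without C2 (edgeR adjusted p = 0.0565) or C3 (0.05003) and under the replicate block (0.0702), and that of Lif without C1, C2, C3, Hy2, Hy4 or HE1 (0.0530 to 0.134) and with the block (0.119). The count of 3 became 1 without C2, without C3 or under the block, and 5 without Hy3. Of the 10 JAK and other STAT genes 1 fell and 0 rose, beside 26.1% of all genes called. The gene that fell was Jak1, a kinase bound to gp130, at a log2 fold change of -0.51 (edgeR adjusted p = 0.00957, or 0.0583 with the block). Without Hy3, 2 of that list fell and 1 rose, and without Hy1 1 rose.

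Of the 15 other negative regulators of JAK-STAT signalling, 2 rose and 1 fell in Hy against C, beside 26.1% of all genes called, with a median of -0.06. Socs1, a close relative of Socs3, had 8.80, 5.39 and 5.63 CPM in HE, 10.3, 11.5, 6.55 and 11.5 CPM in Hy, and 2.62, 2.85 and 2.61 CPM in C. Its Hy libraries were all above its C libraries, and HE lay above C, reaching into the range of Hy, with HE1 above Hy3. The fold change on the log2 scale was 1.88 in Hy against C (SE 0.27, edgeR adjusted p = 0.00196), 1.29 in HE against C (SE 0.28, 0.0125, or 0.0529 without C3) and -0.59 in HE against Hy (unadjusted p = 0.0397, adjusted p = 0.958). Pias4 and Pias2, genes of inhibitors of activated STATs, had log2 fold changes of 0.56 and -0.63 in Hy against C (0.0306 and 0.0176). Pias4 lost its call without C1, C2, C3, Hy2 or Hy4 (0.0579 to 0.105) and with the block (0.106), and Pias2 without C2 (0.0587) or C3 (0.0739). The count of 2 higher genes became 1 without any of C1, C2, C3, Hy2 and Hy4 and with the block, and 4 without Hy3, when 6 were lower.

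Genes known as STAT3 targets included several with large differences between Hy and C. Of 19 tested, 6 rose and 1 fell, beside 15.1% of all genes called higher and 11% lower. The median log2 fold change was 0.72 over the list and 0.03 over all genes. Junb, a transcription factor gene that is also an immediate early gene, had 172, 158 and 110 CPM in HE, 205, 252, 137 and 364 CPM in Hy, and 53.0, 51.6 and 54.1 CPM in C. Cebpb, the gene of an acute phase transcription factor, had 252, 404 and 197 CPM in HE, 374, 287, 211 and 388 CPM in Hy, and 87.3, 55.0 and 83.4 CPM in C. For both genes HE and Hy overlapped and each lay wholly above C. In Hy against C the log2 fold changes were 2.18 for Junb and 2.07 for Cebpb (edgeR adjusted p = 0.00174 and 0.00220), and in HE against C 1.47 and 1.92 (0.0114 and 0.00480).

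Bcl3, which encodes an atypical IkB protein, was higher in Hy than in both other groups. It had 33.2, 19.7 and 19.6 CPM in HE, 54.8, 84.1, 42.0 and 73.4 CPM in Hy, and 26.0, 28.8 and 18.9 CPM in C. Every Hy library was above every HE and C library. The fold change on the log2 scale was 1.37 in Hy against C (SE 0.28, edgeR adjusted p = 0.00823) and -1.39 in HE against Hy (SE 0.28, unadjusted p = 0.000520, adjusted p = 0.640), the smallest p of its list there. Hif1a, the oxygen-regulated factor gene, fell in Hy against C at a log2 fold change of -0.58 (0.0211), a call lost without C1, C2, C3 or Hy4 (0.0524 to 0.0867) and with the block (0.0734). Without C3 the count of 6 higher STAT3 targets became 3, and without Hy2 and Hy4 together it became 2.

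On the interleukin 1 side, 3 receptor genes were called in Hy against C. Of 13 tested ligands and receptors of the family, 2 rose and 1 fell, a share near the 26.1% of all genes, with a median of -0.28. Il1r1, the signalling receptor, had 49.7, 31.6 and 43.0 CPM in HE, 57.7, 40.0, 62.8 and 38.9 CPM in Hy, and 76.8, 78.3 and 90.3 CPM in C, with C above all others. It fell in Hy against C (log2 fold change -0.71, edgeR adjusted p = 0.0285) and in HE against C (-0.98, 0.0152). Il1r2, the decoy receptor, had 0.805, 2.48 and 1.16 CPM in HE, 2.03, 8.67, 1.12 and 11.7 CPM in Hy, and 1.39, 0.874 and 1.14 CPM in C. Hy2 and Hy4 were far above all others, and Hy3 lay within C. Il1r2 and Sigirr, the gene of an inhibitory receptor of the family, had log2 fold changes of 2.37 and 0.56 in Hy against C (0.0478 and 0.0320).

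These 3 calls depended on single libraries. Il1r1 missed the threshold without C1, C2, C3, Hy2 or Hy4 (edgeR adjusted p 0.0619 to 0.104). Sigirr missed it without the same 5 libraries (0.0669 to 0.116) and with the block (0.0999). That of Il1r2 was lost without C1, C2, C3, Hy2, Hy4, HE1, HE2 or HE3 (0.0531 to 0.143), with the block (0.205) and without Hy2 and Hy4 together (0.632). Both the 2 higher calls and the 1 lower call of the list thus became 0 without C1, C2, C3, Hy2 or Hy4. The lower calls became 4 without Hy3 and 2 without Hy1, and the higher calls 1 without HE1, HE2 or HE3. Il1r1 in HE against C lost its call without C3 (0.0600) or HE2 (0.0607). The smallest p of the list in HE against Hy belonged to Il18rap, a chain of the interleukin 18 receptor. Its log2 fold change was -1.38 (edgeR unadjusted p = 0.00335, adjusted p = 0.739). Il18rap had 5.12, 6.72 and 5.68 CPM in HE and 11.5, 13.3, 8.61 and 27.3 CPM in Hy, with Hy4 far above the rest.

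Of the 11 inflammasome genes, which encode the machinery that cleaves pro-interleukin 1 beta, 1 rose and 1 fell in Hy against C, against 26.1% of all genes called. Without Hy3 they were 3 and 2, without C2 1 and 2, and without C3 1 and 0. Gsdmd, the pore-forming gasdermin D gene, had 52.6 ± 3.44 CPM in HE, 52.6 ± 9.56 CPM in Hy and 29.4 ± 2.19 CPM in C. It was higher in both groups than in C, by 0.84 on the log2 scale each time (edgeR adjusted p = 0.00458 for Hy and 0.00733 for HE). Txnip, whose product binds thioredoxin, fell in Hy against C at -0.57 (0.0117), a call lost without C3 (0.0557) and with the block (0.0545). Casp1, the protease gene of the complex, had the smallest p in HE against Hy, with 3.72 ± 0.271 CPM in HE and 5.76 ± 0.882 CPM in Hy (log2 fold change -0.63, unadjusted p = 0.00991, adjusted p = 0.739). Of the 14 genes that carry the signal from the interleukin 1 receptor, 1 fell and 0 rose in Hy against C, beside 26.1% of all genes called. Without Hy3, 7 fell and 2 rose, without Hy4 2 fell, and by DESeq2 3 fell and 1 rose. Of all 14725 genes tested without Hy3, 2798 fell and 3175 rose, and DESeq2 called 32.4% of all genes. The 1 that fell in the main fit was Chuk, an IkB kinase gene. It had 28.8 ± 4.53 CPM in Hy and 48.1 ± 2.62 CPM in C (log2 fold change -0.74, edgeR adjusted p = 0.00414). Myd88, the receptor's adaptor gene, had the smallest p of that list in HE against Hy (-0.53, unadjusted p = 0.0143, adjusted p = 0.774).

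Several genes of NF-kB subunits and their brakes were called higher in Hy than in C. Of 16 tested genes, 9 rose and 0 fell in Hy against C, beside 26.1% of all genes called, with a median log2 fold change of 0.59. In HE against C 4 rose and 0 fell, beside 20.4% of all genes called, with a median of 0.38. Rel, the c-Rel subunit gene, had 12.9, 9.63 and 10.4 CPM in HE, 12.3, 13.4, 23.7 and 12.1 CPM in Hy, and 1.73, 2.27 and 2.78 CPM in C. HE and Hy overlapped, and both were far above C. The fold change on the log2 scale was 2.76 in Hy against C (SE 0.30, edgeR adjusted p = 0.000530) and 2.28 in HE against C (SE 0.31, 0.00213). Nfkbib, which encodes IkB beta, and Relb, another subunit gene, rose by 1.02 and 0.78 on the log2 scale in Hy against C (0.00514 and 0.00883). Rela, the p65 subunit gene, had the smallest p in HE against Hy, with 168, 153 and 147 CPM in HE, all below the 192, 194, 204 and 196 CPM in Hy (log2 fold change -0.33, unadjusted p = 0.00888, adjusted p = 0.739). The 9 calls became 6 without C2, without C3 or under the replicate block, and 4 without Hy2 and Hy4 together. The 4 calls in HE against C became 2 without C1 or HE1, 1 without C2, C3 or HE2, and 7 without Hy3. Without Hy3, 1 gene of the list was also called lower in each of these comparisons. Of the 15 tested NF-kB target genes, 1 rose and 0 fell in Hy against C, beside 26.1% of all genes called. Without Hy3 3 rose, and without Hy1 2 rose and 2 fell. The 1 that rose was Ier3, an early response gene, at a log2 fold change of 0.95 (0.00908). Sele, the gene of the endothelial adhesion molecule E-selectin, had the smallest p of that list in HE against Hy (-2.40, edgeR unadjusted p = 0.0193, adjusted p = 0.826). Its levels were low, at 0.402, 1.15 and 0.276 CPM in HE and 8.24, 1.71, 0.624 and 2.30 CPM in Hy. Hy1 was far above all other libraries.

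**Figure D4:**
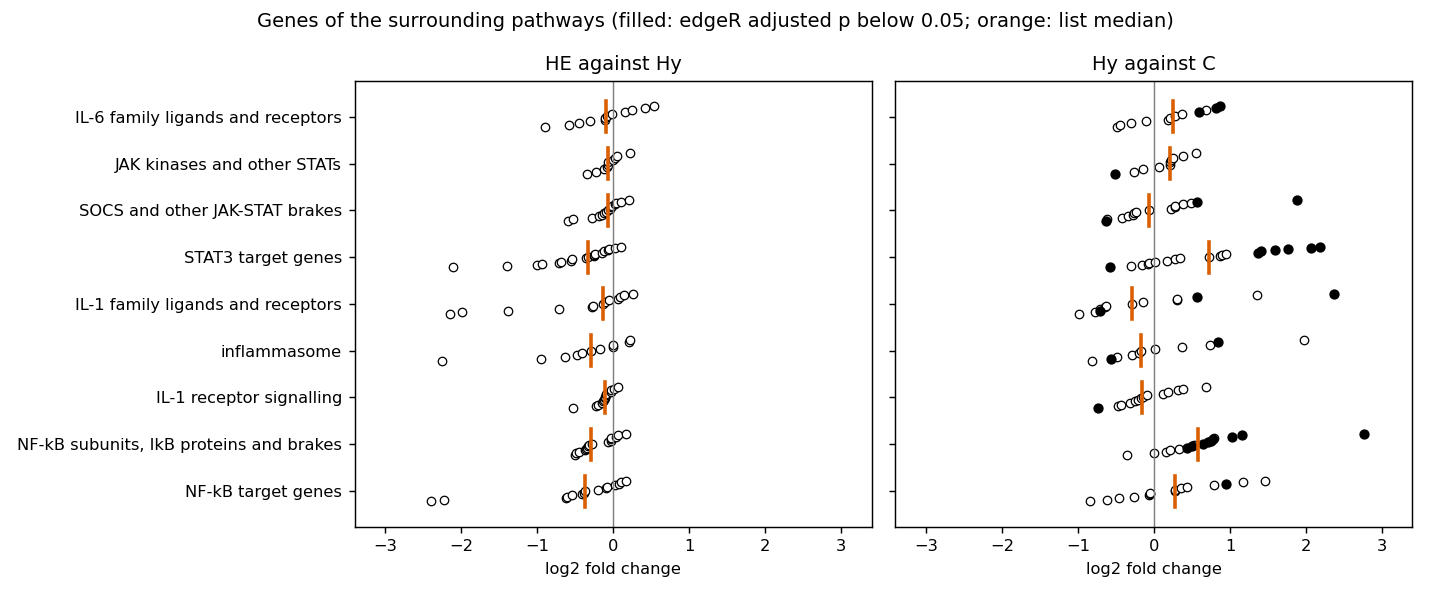
Log2 fold changes (x axes) of the tested genes of the 9 lists (y axis) in HE against Hy and in Hy against C; filled points are calls at an edgeR adjusted p below 0.05 and orange bars are list medians. The NF-kB list has its median at 0.59 and the STAT3 target list at 0.72 in Hy against C, and no point is filled in HE against Hy.

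Without Hy2 and Hy4 together, 7 of the 21 called listed genes named in Hy against C stayed called, namely Cebpb, Chuk, Gsdmd, Junb, Nfkbib, Rel and Socs1 (edgeR adjusted p between 0.00437 for Rel and 0.0453 for Nfkbib). Without C1, Hy4 and HE3 together the 3 that stayed were Cebpb, Junb and Rel (0.0327, 0.0234 and 0.0230).

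In HE against C, 23 genes of the lists were called under the rule for named genes. Of these, 6 kept the call without each single library, among them Cebpb, Chuk, Gsdmd, Junb and Rel. Chuk had a log2 fold change of -0.77 (edgeR adjusted p = 0.00645). The other 17 were Ctf1, Stat5a, Socs1, Pias4, Pim1, Sigirr, Tnip1 and Otulin, with log2 fold changes from 0.47 (Stat5a) to 1.29 (Socs1), and Lifr, Jak1, Ptpn2, Pias2, Hif1a, Myc, Il1r1, Ikbkg and Traf6, with -0.98 (Il1r1) to -0.42 (Ikbkg). Each lost its call without at least 1 library, 11 of them without C1, 14 without C2, 16 without C3, 1 without Hy1, 2 without Hy2, 11 without HE1, 16 without HE2 and 9 without HE3 (adjusted p between 0.0502 and 0.157). Of the lists with no call there, the NF-kB targets had Ptgs2, the inducible cyclooxygenase gene, as the smallest p (-2.68, adjusted p = 0.0585).

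The genes most like the members were sought over the 7 Hy and HE libraries by the correlation of log2 CPM, among 13197 other tested genes of at least 2 CPM on average. Most like Socs3 were Nxph3, the neurexophilin 3 gene (r = 0.98, and 0.93 over all 10 libraries), Itgal, the gene of an integrin chain of leukocytes (0.97 and 0.64), and Rap1gap2 (0.97 and 0.75). Nxph3 had 4.94, 4.91 and 5.08 CPM in HE, 9.91, 8.02, 6.99 and 9.75 CPM in Hy, and 4.13, 4.43 and 5.28 CPM in C. Most like Il1b were Was, the gene of an actin regulator of blood cells (r = 0.98, and 0.96 over all 10 libraries), Pla2g7 (0.98 and 0.91) and Cd300a (0.97 and 0.55). For Il6 the same search gave Tlcd4, Stac2 and Azin1 at 0.98, 0.98 and 0.97, but with at most 7 counts in a library these are no finding. Its values are as high as those for Socs3 and Il1b. The best of so many genes over 7 libraries therefore do not by themselves mark a likeness. Among the members themselves, the closest pair over the 7 libraries was Osm with Il1b (r = 0.92), followed by Il1b with Socs3 (0.88) and Osm with Socs3 (0.82), whereas Il1b with Nfkbia gave 0.09. All of these correlations are descriptions that share the same libraries and depth.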

How the data were processed

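RNA was extracted with Trizol and mRNA was selected on oligo(dT) beads, per the labels' protocols. The authors deposited estimated counts for each gene without normalisation. HISAT2 2.0.4, Bowtie2 2.2.5, RSEM 1.2.12, DESeq 1.4.5 and the build GRCm38.p6 are named, per the submitters' processing notes, with no role or strand setting stated. Entrez gene identifiers were matched to symbols and positions in a RefSeq table of GRCm38.p6, where 17445 of 17465 shared genes had a symbol, and exon lengths came from the GENCODE basic annotation.

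Estimated counts were rounded, filtered with filterByExpr and fitted for all 3 groups together with edgeR 4.0.16 (R 4.3.3), its quasi-likelihood test (robust, TMM factors, 7 residual degrees of freedom). The common biological coefficient of variation was 26.9%. Correlations used log2 CPM with a prior count of 2. The test was tried on simulated data first, as were DESeq2 and limma-voom. There DESeq2 called more unchanged genes than its threshold allows, so its calls are given as an alternative only. The members and gene lists were chosen with earlier results of these data known. All members were named. Of each list and comparison, up to 3 called genes a direction with the smallest p were named, or 1 gene where none was called. Stat2 (HE against Hy, log2 fold change -0.34, adjusted p = 1.00) is the 1 such gene not described in the results.

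Alternatives were DESeq2 1.42.0, limma-voom (limma 3.58.1), RLE factors, filters of none or of 1 CPM in 3 libraries, calls of at least 2-fold, a fit of the compared groups alone, a replicate block, non-overlapping genes, Hy and HE genes alone, each library left out, and fits without Hy2 and Hy4 or without C1, Hy4 and HE3. Deviations of same-number libraries in Hy and C had correlations of 0.121, 0.252 and 0.13, each above the criterion of 0.1. The block is therefore given for that pair, although the labels state no pairing. Libraries of different numbers were not compared, so these values do not show that libraries were paired. Hy4 is the only library with the number 4, so the block fit in effect leaves it out. A call lost with the block is therefore no measure of pairing alone. Replicates differed by more than sampling noise, so none was merged. Intervals and the limits for a count of 0 cover counting error only. A gene of the lists is counted there but not reported by name here.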

Additional observations from a re-analysis of the deposited data

Results flagged for a closer look

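Among 47 genes checked for 1 Hy library far from the other 3, 2 were found. Chance alone gives about 1 in 20 groups, so this count is near what chance gives. Il6st had 308.0 CPM in Hy3, against 267 to 269 CPM in the other Hy libraries. Rel had 23.7 CPM in Hy3, against 12.1 to 13.4 CPM in the other Hy libraries.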

How the results depend on the processing

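In Hy against C, 5 members were called. The count was 2 with only the 2 groups compared and with the replicate block, 1 without Hy2 and Hy4 together, 0 without C1, Hy4 and HE3 together, 3 at 2-fold or more, and 2 to 5 without each library in turn. In HE against Hy the count of 0 became 2 with DESeq2, and it was 0 to 1 without each library in turn. In HE against C the count of 1 became 2 with DESeq2, 2 in a fit of HE and C alone, 0 when C1, Hy4 and HE3 were left out, and 1 to 2 without each library in turn. Signs turned for uncalled values only. With each library left out in turn, the log2 fold change of Il6ra in Hy against C ran from -0.029 (without Hy3) to 0.376, that of Nfkbia in HE against Hy from -0.094 (without HE2) to 0.291, and that of Il1b in HE against C from -0.155 (without HE2) to 0.639. For Socs3 in HE against C it was 0.0117 with limma-voom, 0.00555 with the replicate block, 0.161 without C2 and 0.0603 without HE3, within -0.0788 to 0.161 over the libraries left out. The causes were not tested. Fits with fewer libraries have less power. Over all genes the 3850 calls in Hy against C became 1070 without Hy2 and Hy4 together. They became 360 without C1, Hy4 and HE3 together. In HE against Hy no same-number pair reached the criterion of 0.1 (correlations from -0.036 to 0.059). In HE against C number 2 did (0.19), whereas numbers 1 and 3 had -0.103 and -0.256. The block changed no call of a member in these comparisons. Il6 at up to 7 counts is limited by depth.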
